A study of Mus musculus with 7 samples.

Results

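Immune checkpoint ligands and B7 molecules are the surface proteins through which one cell permits or restrains the activation of a T cell or natural killer cell. This account follows 8 genes of this kind, taken by name: Cd274, Pdcd1lg2, Cd80, Cd86, Icosl, Pvr, Nectin2 and Vsir. No rule on measured values set the list, but earlier results of these data were known when it was chosen. All 8 were found among the 55491 gene rows of a droplet single-cell matrix, and each had UMIs (unique molecular identifiers, each marking 1 captured RNA molecule), from 1110 for Nectin2 to 22473 for Cd86. The cells came from brain hemispheres bearing CT-2A glioma, a mouse glioma line injected into the brain. Tissue was dissociated, frozen and thawed, and live cells with surface CD45, CD11b or both were sorted, with 1 library per mouse, so that cells without either protein were depleted. Group KO held 4 mice of genotype Siglece KO, which carried Sall1CreERT2 (a tamoxifen-inducible Cre recombinase driven from the Sall1 locus, a gene that marks microglia among the immune cells of the brain) together with Siglecefl/fl. Group WT held 3 mice with Siglecefl/fl and no Cre. Mice of both groups were engrafted at 8 to 12 weeks of age, and all received tamoxifen at 2.5 mg per injection into the abdomen, from day 7 after engraftment, each day until day 21 and on alternate days after that. The driver allele is named B6;129-Sall1<tm5(cre/ERT2)Ryn> and the floxed allele B6.129P2-Siglece<tm1Bcgen>, so the groups also differ in the driver allele itself. WT mice are therefore a control for tamoxifen and the floxed allele, and not for Cre.

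The ligands divide by the receptors they meet. Cd274 and Pdcd1lg2 encode PD-L1 and PD-L2, which engage PD-1 and restrain activated T cells. Cd80 and Cd86 encode B7-1 and B7-2, which costimulate T cells through CD28 and are bound more tightly by the inhibitory receptor CTLA-4, and Icosl encodes the ligand of ICOS. Pvr (CD155) and Nectin2 (CD112) are adhesion molecules recognised by the activating receptor CD226 and the inhibitory receptor TIGIT. Of the inhibitory receptors CD96 and PVRIG, the first binds Pvr and the second Nectin2. Vsir encodes VISTA, an inhibitory B7-like molecule of myeloid cells and T cells.

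The matrix held 28644 cells under 23 cell type names given by the authors, in libraries of 1410 to 5856 cells with a median of 4479 to 9554 UMIs per cell. Levels are given as CPM, the UMIs of a gene per 1000000 UMIs of all genes, computed per mouse and name where a mouse had at least 20 cells of the name, and then averaged over mice. Orders of cell types cover the 22 names measured in at least 4 mice; the name Microglia was measured in the 3 WT mice alone. In total 926 cells carried 460 barcodes that occurred in more than 1 library, and 8.04% of these barcodes had the same name in each library against 7.77% expected from the makeup of the libraries. Siglece, the targeted gene, had 2, 1, 0 and 0 UMIs in the microglia of KO replicates 1 to 4, from 113 cells in all, and 20, 19 and 7 UMIs in the microglia of WT replicates 1 to 3, from 301 cells. Its level there was 7.57 ± 9.46 CPM in KO (SD, n = 4 mice) and 33.5 ± 13.9 in WT (n = 3 mice), and KO replicate 2 (19.6, from 1 UMI) lay above WT replicate 3 (18.6). The KO mean includes KO replicate 3, whose 13 microglia were under the minimum of 20 cells.

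Of the cell type names, cDC2 needs a caution, because it was first or second in the order of 7 of the 8 ligands. Conventional dendritic cells of type 2 are marked by Sirpa, Cd209a, Clec10a and the integrin Itgax. In the 954 cells named cDC2 these genes stood at 20.6, 0.1, 2.9 and 15.6 CPM, and Cd209a had 1 UMI. Ccr7, the chemokine receptor that guides dendritic cells to lymph nodes, stood at 3859 ± 870 (SD, n = 7 mice), and Fscn1, which encodes the actin-bundling protein fascin, at 5134 ± 727. Il12b, a subunit of interleukin-12, was at 787 and the chemokine gene Ccl22 at 1118. All 954 cells had a UMI of Ccr7 or Fscn1, against 213 of 1864 cells named cDC1 and 379 of 1569 cells named mo-DCs (monocyte-derived dendritic cells). The cells are called here the Ccr7- and Fscn1-rich cells, which the authors named cDC2. The name Tumor/stromal cells rested on Nes (165), Sox2 (53) and Col3a1 (591), given here as CPM of all its cells pooled over mice. The astrocyte genes Fabp7, S100b and Gfap and the endothelial gene Cldn5 had no UMI in it.

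Cd274 and Pdcd1lg2 are neighbours on mouse chromosome 19. In the RefSeq annotation of build GRCm38 (mm10), Cd274 spans chr19:29362107-29388095 and Pdcd1lg2 spans chr19:29410919-29472927, both on the plus strand, with 22824 bp between them. The 250 bases before the start site given for each gene in the RefSeq promoter table are shown because these neighbours shared their top cell type but differed in the order below it. The start used for Cd274 lies inside the RefSeq span of the gene, near position 29367455, where GENCODE M21 starts the gene. They lie at chr19:29367188-29367437 for Cd274 and chr19:29410669-29410918 for Pdcd1lg2, and capitals mark the GC box GGGCGG, a motif bound by Sp-family factors.
Cd274: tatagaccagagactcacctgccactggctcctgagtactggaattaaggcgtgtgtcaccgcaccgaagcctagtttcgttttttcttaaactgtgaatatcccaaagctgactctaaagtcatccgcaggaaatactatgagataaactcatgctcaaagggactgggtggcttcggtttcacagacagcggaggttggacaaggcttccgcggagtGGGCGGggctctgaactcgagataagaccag
Pdcd1lg2: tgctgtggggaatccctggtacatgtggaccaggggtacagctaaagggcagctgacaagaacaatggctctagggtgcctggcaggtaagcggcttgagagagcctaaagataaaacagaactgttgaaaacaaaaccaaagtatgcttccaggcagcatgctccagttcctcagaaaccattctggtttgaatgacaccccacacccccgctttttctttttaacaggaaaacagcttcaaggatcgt
The share of G and C in these stretches is 50.4% for Cd274 and 48.4% for Pdcd1lg2, and only the first holds the GC box. Over windows from 250 bases before to 50 bases after the start, read on both strands, 35.7% of 32851 RefSeq promoters hold GGGCGG, as do those of Cd274, Nectin2, Vsir and Icosl. The interferon-gamma activation motif TTCNNNGAA (8.30% of promoters), an interferon factor motif of GAAA and again GAAA with 2 bases of any kind between them (3.44%), and an NF-kB motif of GGG and TTTCC with 2 bases of any kind between them (1.63%) were in none of the 6 ligand windows at hand, which leave out Cd86 and Pvr. The Cd80 window, chr16:38458683-38458982, lies inside the RefSeq span of that gene, which starts at 38457430.

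Cd274 was highest in the Ccr7- and Fscn1-rich cells, at 471 ± 75.8 CPM (SD, n = 7 mice). In KO replicates 1 to 4 the values were 362, 438, 421 and 439, and in WT replicates 1 to 3 they were 561, 524 and 554. Every mouse was above its own Monocytes (P1-P2), which came next at 226 ± 72.9. Macrophages (P3) followed at 170 ± 43.5, mo-DCs at 145 ± 24.8, Macrophages (P5) at 109 ± 34.5 and Tregs, the regulatory T cells that restrain other T cells, at 106 ± 16.2. In the whole order, 18 of 21 pairs of neighbours had means that differed by less than the larger SD. The exceptions were the top pair, mo-DCs above Macrophages (P5), and proliferating CD8+ T cells above plasmacytoid dendritic cells. Pairs within the spread could still order within mice, as Macrophages (P5) exceeded Tregs in 6 of 6. The low end held cDC1 at 45.6 ± 17.3, plasmacytoid dendritic cells at 20.2 ± 9.2 and Tumor/stromal cells at 16.1 ± 10.9. Monocytes exceeded Macrophages (P5) in 7 of 7 mice (ratio of means 2.08).

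Pdcd1lg2 shared the top name and almost nothing else of this order. The Ccr7- and Fscn1-rich cells stood at 172 ± 48.2 CPM (SD, n = 7 mice), with 109, 116, 170 and 169 in the KO mice and 188, 209 and 244 in the WT mice. The next 5 names were all T cell names. Th1 cells, the interferon-gamma-producing helper cells, were at 80.0 ± 13.6 (n = 6), Tregs at 70.6 ± 22.4, Tfh cells at 69.0 ± 11.2, exhausted CD8+ T cells at 67.2 ± 13.2 and precursor-exhausted CD8+ T cells at 51.5 ± 8.8. Natural killer cells stood at 42.3 ± 12.8 and mo-DCs at 34.3 ± 8.6. Monocytes, second for Cd274, were at 7.7 ± 2.7 for Pdcd1lg2, and Macrophages (P5) at 3.2 ± 2.0. Exhausted CD8+ T cells were above naive or early-activated CD8+ T cells in 6 of 6 mice (ratio 2.29). To compare cells at one depth, each was thinned to 1500 UMIs, and cells with fewer were left out. A Pdcd1lg2 UMI was then found in 6.86% of T cells and 6.77% of natural killer cells, against 0.226% of Macrophages (P5), where median depth before thinning was 6437 UMIs against 4748 in T cells. Without thinning the shares were 21.4%, 22.1% and 2.15%.

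The balance of the PD-1 ligands also varied from lineage to lineage. Pdcd1lg2 made up 59.4 ± 8.2% of the UMIs of Cd274 and Pdcd1lg2 together in Th1 cells, 53.9 ± 6.6% in precursor-exhausted CD8+ T cells and 39.6% in Tregs. It made up 26.4 ± 3.5% in the Ccr7- and Fscn1-rich cells and 3.3 ± 1.2% in monocyte-derived cells (SD over mice). Capture can differ between genes, so these shares are compared across cell types and not read as one ligand exceeding the other.

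**Figure D1:**
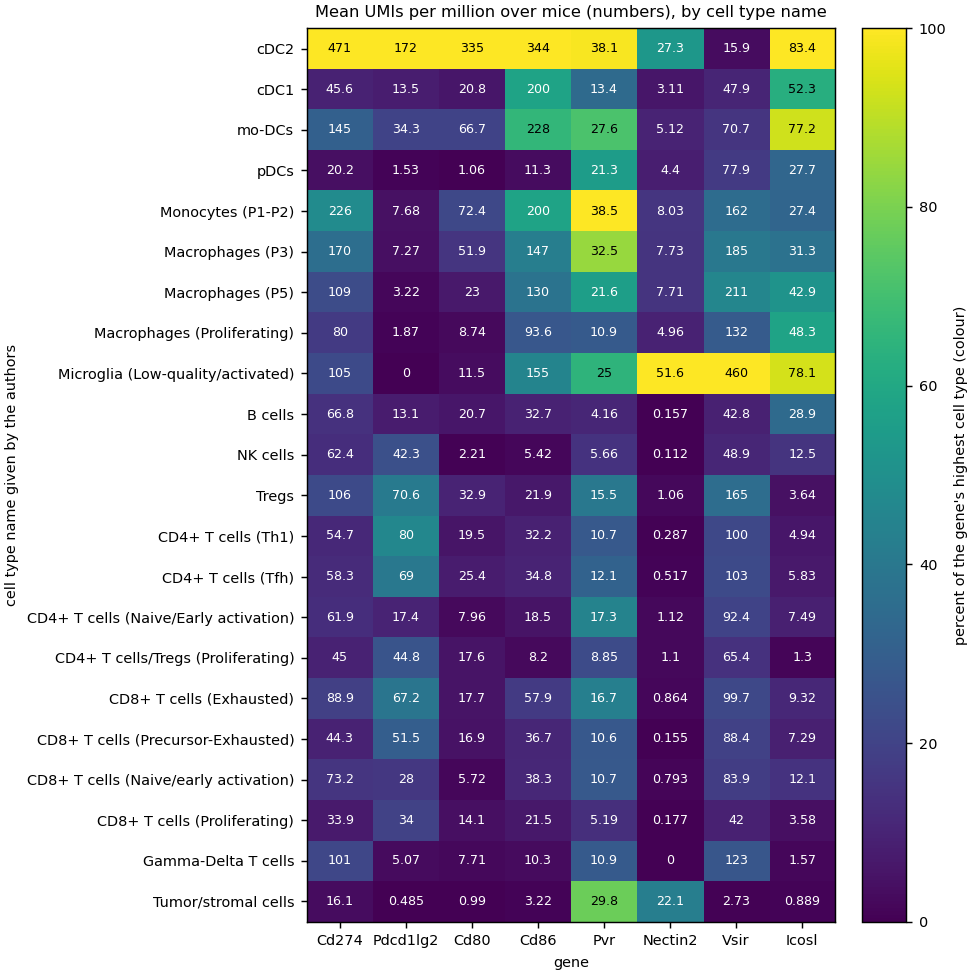
Heat map of the mean CPM of the 8 genes (columns) in 22 cell type names (rows); the printed number is the mean over mice and the colour is the percent of that gene's highest name. Cd274 (471), Pdcd1lg2 (172), Cd80 (335), Cd86 (344) and Icosl (83.4) peak in the name cDC2, while Vsir (460) and Nectin2 (51.6) peak in Microglia (Low-quality/activated).

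Cd80, the B7 molecule of strongly activated antigen-presenting cells, was at 335 ± 73.6 CPM in the Ccr7- and Fscn1-rich cells (SD, n = 7 mice). Individual values were 389, 371, 231 and 310 in the KO mice and 421, 246 and 375 in the WT mice, with the groups overlapping. Monocytes came next at 72.4 ± 31.1, then mo-DCs at 66.7 ± 18.5 and Macrophages (P3) at 51.9 ± 16.5. Tregs led the T cell names in the order at 32.9 ± 14.1, above their own Th1 cells in 5 of 6 mice (ratio 1.69). Joined over their names, T cells exceeded natural killer cells for Cd80 in 7 of 7 mice (ratio 7.89). Natural killer cells (2.2), plasmacytoid dendritic cells (1.1) and Tumor/stromal cells (0.99) closed the order.

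Cd86, more widely carried by resting antigen-presenting cells, was spread over the myeloid names except plasmacytoid dendritic cells, at 11.3 ± 5.0 CPM. Its mean was 344 ± 68.9 in the Ccr7- and Fscn1-rich cells, where the KO mice had 370, 281, 376 and 305 and the WT mice 354, 258 and 461. It was 228 ± 50.5 in mo-DCs, 200 ± 46.7 in monocytes, 200 ± 29.7 in cDC1 and 155 ± 42.3 in Microglia (Low-quality/activated), a name whose label marks its cells as poor in quality or activated. The fall from the top name to cDC1 was thus a ratio of 0.581 for Cd86, against 0.0622 for Cd80, 0.0785 for Pdcd1lg2 and 0.0968 for Cd274, all in 7 of 7 mice. Joined microglia and monocyte-derived cells did not order for Cd86, since microglia were higher in 3 of 6 mice (ratio 1.04).

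The share of Cd80 in the UMIs of Cd80 and Cd86 together varied across cell types as well. It was 49.2 ± 6.2% in the Ccr7- and Fscn1-rich cells, 25.8% in monocytes, 22.4 ± 2.6% in mo-DCs, 14.6% in Macrophages (P5), 9.3 ± 2.4% in cDC1 and 7.6 ± 3.5% in microglia. In Tregs it was 59.7 ± 4.6% and in the proliferating CD4+ T cells and Tregs 68.4 ± 13.5%.

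Icosl had 3 names at nearly one level. The Ccr7- and Fscn1-rich cells stood at 83.4 ± 22.1 CPM, Microglia (Low-quality/activated) at 78.1 ± 36.9 and mo-DCs at 77.2 ± 26.3, and cDC1 followed at 52.3 ± 14.7. Microglia, joined over both names and so outside this order, stood at 93.6 ± 31.3 (SD, n = 6 mice). They exceeded monocyte-derived cells in 6 of 6 mice (ratio 2.52). Monocytes were below Macrophages (P5) in 7 of 7 mice (ratio 0.638), the reverse of Cd274, Cd80 and Cd86. No T cell name passed 12.1, so the cells with the receptor Icos held little of its ligand.

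Pvr had the most overlap in its order. The highest were Monocytes (38.5 ± 11.9), the Ccr7- and Fscn1-rich cells (38.1 ± 14.3), Macrophages (P3) (32.5 ± 10.5), Tumor/stromal cells (29.8 ± 8.9) and mo-DCs (27.6 ± 8.7). All 21 pairs of neighbours in its order had means that differed by less than the larger SD. Natural killer cells at 5.7, proliferating CD8+ T cells at 5.2 and B cells at 4.2 were lowest. Nectin2 was the rarest ligand, and its order was another: Microglia (Low-quality/activated) at 51.6 ± 20.6, the Ccr7- and Fscn1-rich cells at 27.3 ± 22.4 and Tumor/stromal cells at 22.1 ± 3.4. The second of these means was raised by a single mouse, WT replicate 3. Joined microglia exceeded monocyte-derived cells in 6 of 6 mice (ratio 6.10), on 88 Nectin2 UMIs in all microglia. No T cell name was above 1.12, and gamma-delta T cells had no Nectin2 UMI. Of the UMIs of Nectin2 and Pvr together, Nectin2 made up 61.9 ± 11.3% in microglia, 43.4 ± 8.7% in Tumor/stromal cells, 22.6% in monocyte-derived cells and 5.8 ± 4.6% in T cells.

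Vsir was led by microglia, and among dendritic names it was lowest where the B7 genes were highest. Microglia (Low-quality/activated) stood at 460 ± 128 CPM and were above Macrophages (P5), at 211 ± 35.6, in 5 of 5 mice. The name Microglia was at 506 ± 43.6 in the 3 WT mice. Macrophages (P3) followed at 185 ± 43.2, Tregs at 165 ± 32.2 and monocytes at 162 ± 15.2. Dendritic names were low, with mo-DCs at 70.7 ± 11.7, cDC1 at 47.9 ± 8.2 and the Ccr7- and Fscn1-rich cells at 15.9 ± 3.2. In that last name the KO mice had 19.3, 15.1, 12.5 and 15.6 and the WT mice 11.5, 20.04 and 17.5. cDC1 exceeded it in 7 of 7 mice (ratio 3.00), as did mo-DCs (ratio 4.44). After thinning to 1500 UMIs, 49.5% of microglia had a Vsir UMI against 2.1% of the Ccr7- and Fscn1-rich cells, whose median depth before thinning was 6439 UMIs against 3058.5. Tregs were above Th1 cells for Vsir in 6 of 6 mice (ratio 1.65) and for Cd274 in 6 of 6 (ratio 1.93).

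**Figure D2:**
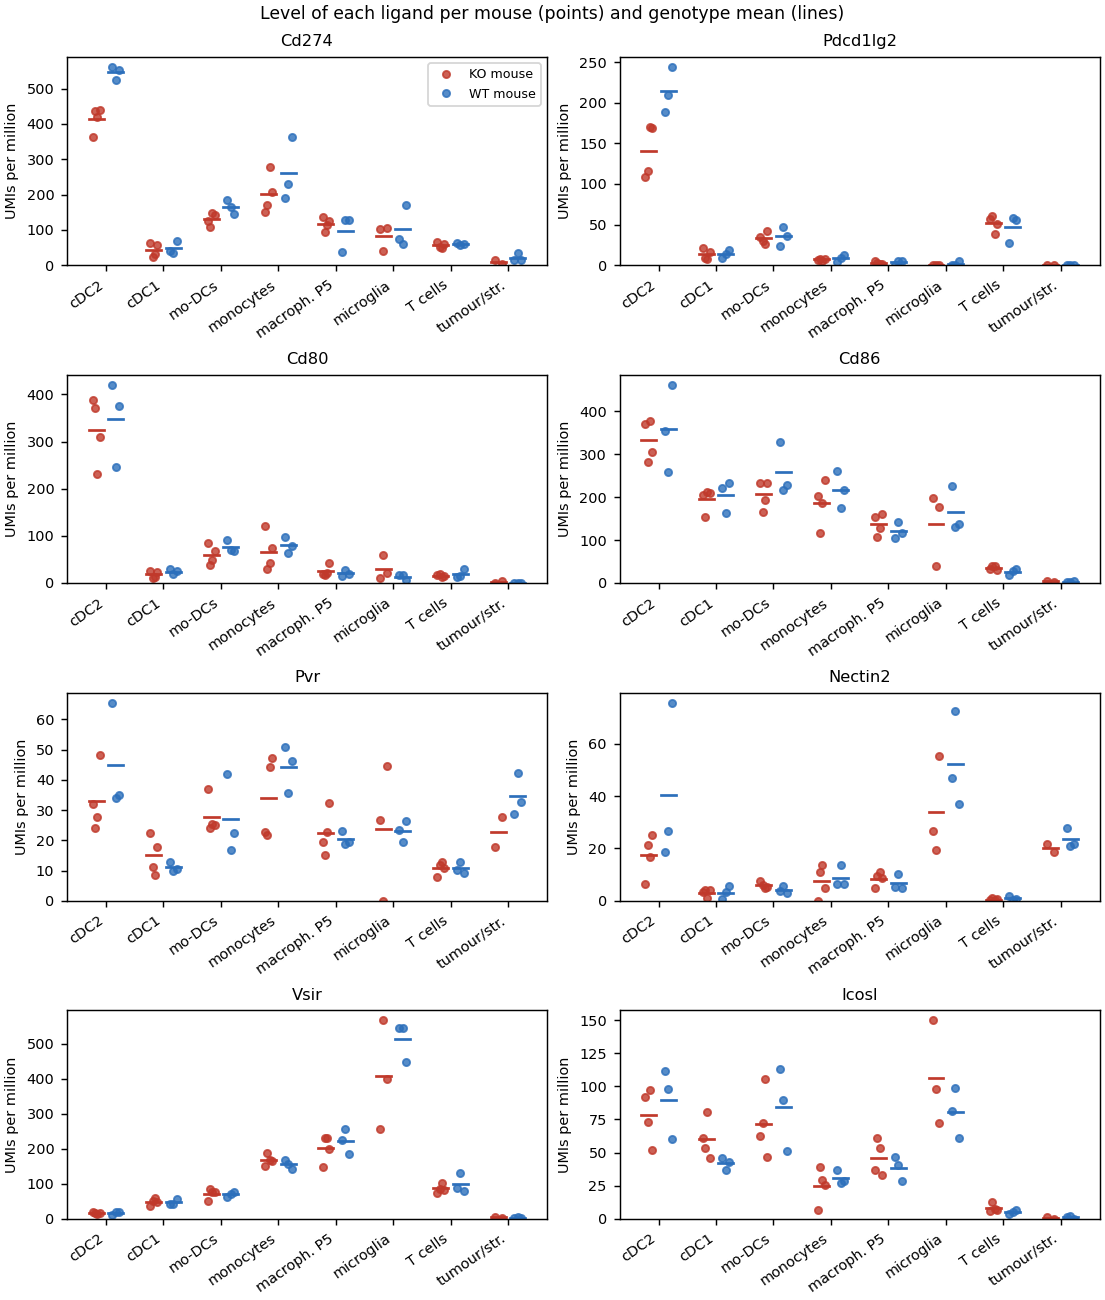
CPM of each gene (8 panels, vertical axes of their own) in 8 cell populations, with 1 point per mouse (KO red, WT blue) and a line at each genotype's mean. In cDC2 the Cd274 points of the KO mice (362 to 439) lie below those of the WT mice (524 to 561), while Cd80 and Cd86 overlap.

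The tumour cells themselves were sparse here, since the sort took cells with CD45 or CD11b. The name Tumor/stromal cells held at least 20 cells in 5 mice. Its Pvr values were 17.7 and 27.8 in KO replicates 2 and 4 and 28.7, 42.3 and 32.8 in the WT mice, and its Nectin2 values were 21.6 and 18.5 in KO and 27.7, 20.8 and 21.8 in WT. Compared with Macrophages (P5), the tumour name was higher for Nectin2 in 5 of 5 mice (ratio 2.88) and for Pvr in 4 of 5 (ratio 1.37). The other 6 ligands were lower in 5 of 5 mice, among them Cd274 (ratio 0.158), Cd80 (0.0409), Cd86 (0.0255), Icosl (0.0212) and Vsir (0.0124). A UMI of Ptprc, the gene of CD45, occurred in 80 of its 384 cells. For this split the cells of all libraries were pooled and not averaged over mice, so mice and genotypes are mixed in it. Cd274 stood at 25.2 in cells with Ptprc and 13.8 in cells without it, and Cd86 at 8.81 and 2.02, at median depths of 20557 and 20569 UMIs. Pvr (19.96 and 31.5) and Nectin2 (19.96 and 22.3) did not share that direction. The part of doublets and of free RNA in these values was not tested. By a rule on UMIs of another lineage, 33.3% of the cells of this name were possible doublets. The rule took any UMI of Cd3d, Cd3e, Cd3g, Trac or Trbc2, and for this name also of Ptprc. Without Ptprc, and at a median depth of 6439 UMIs, it marked 15.4% of the Ccr7- and Fscn1-rich cells. Rule and depth differed, so these shares are not on one scale.

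Counted as molecules in the whole sorted suspension, the ligands had different sources. Monocyte-derived cells gave 37.4% of Cd274 UMIs (mean over 7 mice), conventional dendritic cells 22.8%, T cells 21.7% and mo-DCs 12.2%. By genotype, monocyte-derived and T cells gave 30.2% and 31.0% of Cd274 in KO and 47.0% and 9.28% in WT, so the order of these sources did not hold in both groups. In the same mean over mice, the Ccr7- and Fscn1-rich cells gave 17.2% of Cd274 from 3.4% of the cells. T cells gave 51.9% of Pdcd1lg2 UMIs, with 44.4% of the cells, but they led in KO alone (66.1% against 16.6% from conventional dendritic cells), and in WT the conventional dendritic cells gave 42.9% against 33.0%. For Cd80 the Ccr7- and Fscn1-rich cells gave 31.5%, and for Cd86 monocyte-derived cells gave 34.3% (27.6% in KO and 43.3% in WT) and conventional dendritic cells 33.7% (33.7% and 33.8%). Vsir came at 47.6% from monocyte-derived cells and 31.8% from T cells, but T cells led in KO (43.9% against 36.2%) and monocyte-derived cells in WT (62.7% against 15.8%). Microglia, 1.71% of the cells, gave 3.89% of Vsir (1.97% in KO and 6.46% in WT). Tumor/stromal cells, 1.35% of the cells, gave 15.7% of Nectin2 (14.2% in KO and 17.6% in WT) and 6.51% of Pvr (4.27% and 9.51%).

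**Figure D3:**
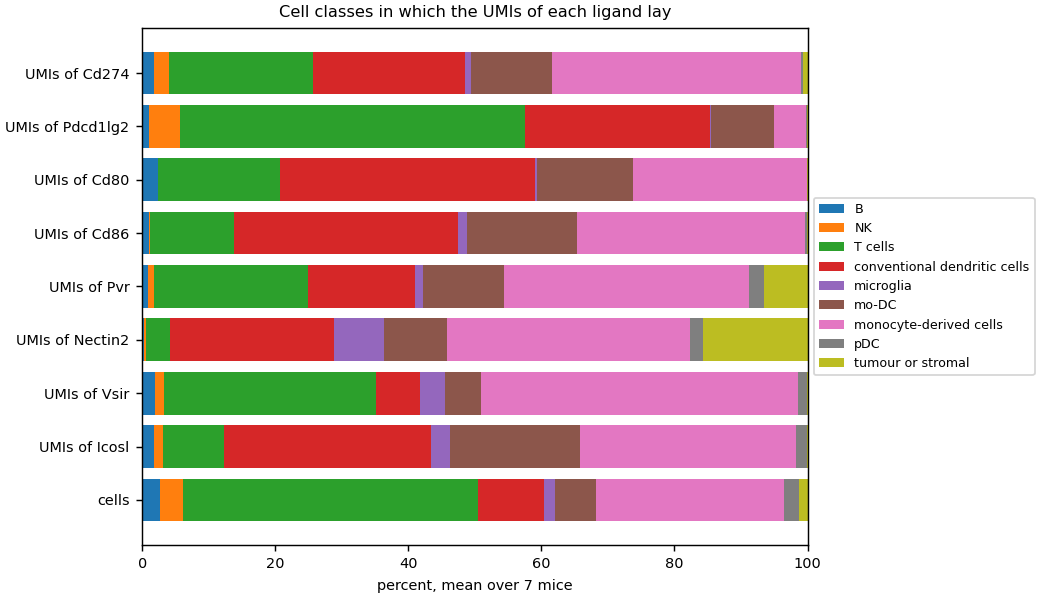
Stacked bars of the percent of each gene's UMIs, and of all cells, that came from 9 cell classes, as the mean over 7 mice. T cells hold 51.9% of Pdcd1lg2 UMIs but 21.7% of Cd274 UMIs, and tumour or stromal cells hold 15.7% of Nectin2 UMIs.

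Because the Ccr7- and Fscn1-rich name led so many orders, cells of the other dendritic names were divided by whether they had a UMI of Ccr7 or Fscn1, a division chosen after the values were seen and given without a test. In mo-DCs, Cd274 stood at 224 ± 38.3 in cells with such a UMI and 116 ± 17.8 in cells without (SD, n = 7 mice), higher in 7 of 7. Pdcd1lg2 (54.5 and 26.2), Cd86 (302 and 200), Pvr (33.6 and 25.5) and Nectin2 (9.20 and 3.66) were also higher in 7 of 7 mice, Cd80 (95.2 and 54.6) in 6 and Icosl (97.2 and 71.8) in 5. Vsir alone ran the other way, at 55.4 and 75.2, lower in 7 of 7. In cDC1, over 5 mice, Cd274 was 128 ± 49.3 and 31.7 ± 12.3, Pdcd1lg2 47.5 and 7.94, Cd80 49.0 and 16.8 and Cd86 266 and 185, each higher in 5 of 5, while Vsir (45.7 and 48.2) was higher in 1. Cells with the UMI had more UMIs in all, with medians of 9402 against 8897.5 in mo-DCs and 15271 against 13565 in cDC1. The part of depth, doublets and free RNA was not tested.

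**Figure D4:**
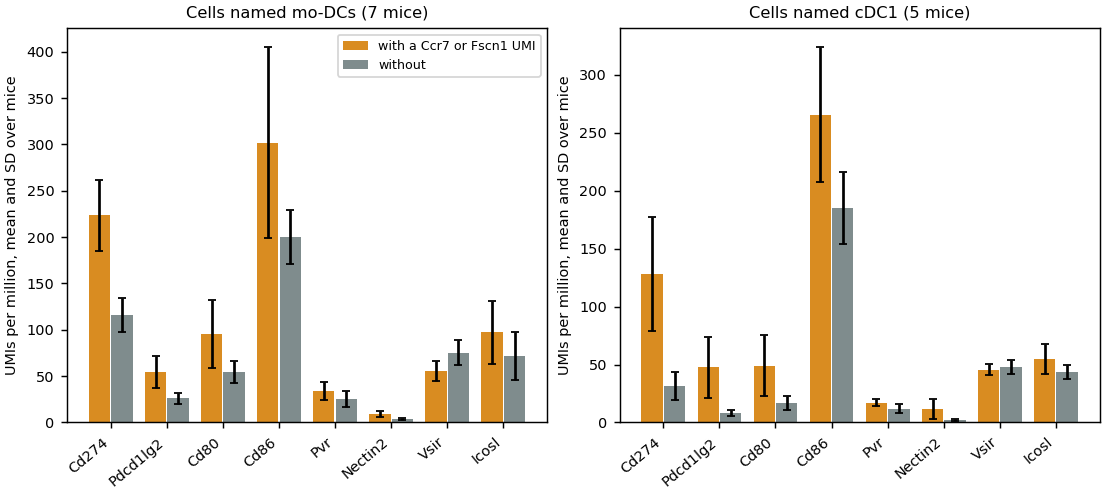
CPM of the 8 genes in mo-DCs (7 mice) and cDC1 (5 mice), for cells with and without a UMI of Ccr7 or Fscn1; bars are means and error bars are SD over mice. Cd274 in mo-DCs is 224 with and 116 without, and Vsir is 55.4 with and 75.2 without.

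Within the Ccr7- and Fscn1-rich cells joint detection was counted for all pairs of ligands and set beside the number that the product of their shares gives. Cells of all mice and both groups were pooled. Levels differ between mice, so the product is not the exact count that unrelated genes would give. Of 944 cells thinned to 1500 UMIs, 452 had a Cd274 UMI and 378 a Cd80 UMI. Cells with both numbered 188, beside 181 from the product of the shares. Cd80 and Cd86 occurred together in 140 cells beside 133, and Cd274 and Pdcd1lg2 in 102 cells beside 87.1. Pairs with a rarer ligand lay further off in few cells, such as Pdcd1lg2 and Nectin2 in 13 cells beside 5.78, and Cd80 and Vsir in 4 beside 8.81. At this depth a missing UMI does not show a missing transcript, so these counts describe detection only.

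Across the 22 names the orders of some ligands resembled each other, as Pearson correlations of log2 levels plus 1, given as descriptions since the names share libraries. Cd274 and Cd80 stood at 0.81, Cd86 and Icosl at 0.82, Pvr and Nectin2 at 0.80 and Cd80 and Cd86 at 0.76, against 0.26 for Cd274 and Pdcd1lg2 and -0.52 for Pdcd1lg2 and Nectin2. Of 13048 genes compared, the 3 closest to Cd274 were Gm36043 (0.94), the interferon-inducible GTPase gene Gbp5 (0.89) and Rassf2 (0.83). Gm36043 is a noncoding RNA at chr19:29378749-29384951, inside the span of Cd274, and since it is not stated whether counting used strand, their reads may not be told apart. Closest to Pdcd1lg2 were Traf1 (0.90), an adaptor of tumour necrosis factor receptors, Pglyrp1 (0.87) and Stat4 (0.87), which transmits interleukin-12 signals. Those of Cd80 were Tnip3 (0.87), the survival gene Bcl2a1d (0.85) and Anxa4 (0.83), and those of Cd86 the chemokine gene Cxcl16 (0.88), the kinase gene Dapk1 (0.86) and Guca1a (0.85). Pvr lay nearest to the membrane fusion gene Stx4a (0.91), the kinase gene Src (0.85) and Zswim4 (0.83), and Nectin2 to the kinase gene Cdc42bpb (0.93) and Cttnbp2nl (0.93). Vsir lay nearest to Cd84 (0.91), Fermt3 (0.91), which activates integrins, and the potassium channel gene Kcna3 (0.90), and Icosl to the kinase gene Sgk3 (0.94), Ncf1 (0.91), a part of the phagocyte oxidase, and Acox3 (0.90). Bcl2a1d has near-identical copies whose reads the counting could split.

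The receptors Pdcd1, Ctla4, Icos, Tigit, Cd28 and Cd226 were led by T cell names, while Selplg, a binding partner of VISTA best known as a selectin ligand, was at 867 CPM in microglia, 870 in the Ccr7- and Fscn1-rich cells and 558 in T cells. The summed level of the 11 receptor genes, Selplg included, ranged from 2362 to 3412 CPM in T cells, 1265 to 1603 in natural killer cells, 941 to 1317 in the Ccr7- and Fscn1-rich cells, 632 to 1177 in microglia and 239 to 345 in monocyte-derived cells. Pdcd1 (PD-1) stood at 1039 CPM in exhausted CD8+ T cells, 884 in Tfh cells, 344 in Tregs and 50.2 in natural killer cells. Ctla4 (1538), Icos (1292) and Tigit (993) were highest in Tregs, the T cell name with the most Cd274, Cd80 and Vsir in these orders. Cd28 was at 154 in all T cells and Cd226 at 92.3, while Pvrig was at 55.2 in Tregs and 42.7 in natural killer cells. Pdcd1 also reached 125 in the Ccr7- and Fscn1-rich cells, which were highest for its ligands. Of other relatives, Nectin3 (52.0), which binds Nectin2, was highest in Tumor/stromal cells, as was the B7 molecule Cd276 (16.4). Nectin1 was at 51.9 in the Ccr7- and Fscn1-rich cells and 50.1 in mo-DCs. Rgmb, a partner of PD-L2, was highest in Microglia (Low-quality/activated) at 204 and next in Tumor/stromal cells at 162.

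The genotype comparison asked whether loss of Siglece under the Sall1 driver moved the ligands, using edgeR's quasi-likelihood test on UMI sums per mouse with Benjamini-Hochberg adjustment over all genes of a cell type. Across 21 names and 4 joined classes, 143 of the 200 possible pairs of ligand and cell type passed the filter on low counts, and none was called at an adjusted p under 0.05, beside 0.0143% of all pairs of gene and cell type. At an unadjusted p under 0.05 there were 9 pairs (6.29%), beside 5.75% of all pairs, and DESeq2 called none. The KO value was lower in 93 pairs and higher in 50, with a median log2 change of -0.09, while 50.8% of all pairs were higher in KO. Pairs repeat the same mice, and joined classes repeat the cells of their names. Cd80 was lower in 15 of its 16 cell types (median -0.37), Pdcd1lg2 in 14 of 17, Vsir in 19 of 24 and Cd274 in 16 of 25, and Icosl was higher in 10 of 15.

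The Ccr7- and Fscn1-rich cells came nearest to a difference. Their Cd274 level was 415 ± 36.4 CPM in KO (SD, n = 4), and the WT mean was 546 ± 19.8 (n = 3). The highest KO mouse was below the lowest WT mouse. The log2 change was -0.49 with an SE of 0.15 and a 95% interval of -0.81 to -0.17, and it did not pass edgeR's test over all genes (adjusted p = 0.378). Pdcd1lg2 was 141 ± 33.1 in KO and 214 ± 28.0 in WT, again without overlap, with a log2 change of -0.68, an SE of 0.20, a 95% interval of -1.11 to -0.26 and an edgeR adjusted p of 0.361. With no filter on low counts its edgeR adjusted p was 0.0352. All KO mice were below all WT mice for 2.92% of the 7853 genes tested there, and edgeR called 0% of them, with 759 at an unadjusted p under 0.05 and 13 called by DESeq2. Nectin2 was lower by a log2 value of -1.15 with an SE of 0.53 (edgeR adjusted p = 0.548), which became -0.36 without WT replicate 3, whose 75.8 was far above the 18.7 and 26.7 of the other WT mice. Cd80 (-0.19) and Cd86 (-0.21) had edgeR adjusted p of 0.819 and 0.780. Icosl was 78.5 ± 20.8 in KO and 89.9 ± 26.6 in WT, with the groups overlapping (log2 change -0.34, edgeR adjusted p = 0.679). Ccr7 was 3564 ± 993 in KO and 4251 ± 623 in WT, and Cd40, a receptor for T cell help, 252 ± 22.8 and 366 ± 80.6. The summed T cell markers, with 7 of 7 above 0, ranged from 43.8 to 283 in these cells of KO mice and from 8.33 to 70.0 in WT mice. Possible doublets were cells with a UMI of Cd3d, Cd3e, Cd3g, Trac or Trbc2. With these left out, the log2 change was -0.43 for Cd274, -0.58 for Pdcd1lg2 and -1.27 for Nectin2. The edgeR adjusted p were 0.374, 0.374 and 0.511. The part of any T cell RNA in the remaining cells was not tested.

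In microglia, the cells the driver targets, KO replicates 1, 2 and 4 gave 30, 21 and 49 cells, and replicate 3 was left out with 13. Vsir was 257, 568 and 400 CPM in these and 547, 546 and 448 in the WT mice, so the groups overlapped. Its log2 change was -0.42 (edgeR adjusted p = 0.545). Nectin2 had 26.8, 19.6 and 55.5 against 46.9, 72.5 and 37.1 (log2 change -0.45, edgeR adjusted p = 0.725). Microglia of all mice held 88 Nectin2 UMIs, and the 19.6 of KO replicate 2 came from 1 UMI. Icosl had 150, 97.9 and 72.2 against 81.2, 99.0 and 61.0, a log2 change of 0.43 (edgeR adjusted p = 0.630) that was -0.04 without KO replicate 1. Cd274 (-0.09) and Cd86 (-0.04) had edgeR adjusted p of 0.955 and 0.978. edgeR called 0.0415% of the 4820 genes tested in microglia, none of them a ligand. A further edgeR model, with a term for each mouse, asked whether the genotype difference in microglia departed from that in monocyte-derived cells (3 KO and 3 WT mice). None of the 8 ligands passed, beside 62 of 11858 genes, and the lowest unadjusted p was that of Vsir (0.0726, edgeR adjusted p = 0.535, log2 difference -0.47). Pdcd1lg2, Cd80 and Pvr had only 2, 28 and 45 UMIs in all microglia. They had failed the filter on low counts in the microglia fit, so this model could show little for them.

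Most of the other pairs are named because their unadjusted p was under 0.05. Cd274 in mo-DCs was 130 ± 17.9 in KO and 164 ± 19.1 in WT (log2 change -0.38, edgeR adjusted p = 0.604). Icosl in cDC1 was 60.2 ± 15.1 and 41.9 ± 4.61 (0.49, edgeR adjusted p = 0.748). Pvr in monocytes had a log2 change of -0.34 (edgeR adjusted p = 0.827), and Vsir in natural killer cells -0.54 (edgeR adjusted p = 1.00). In 4 further pairs all KO mice were below all WT mice. Pvr in Tumor/stromal cells had a log2 change of -0.64 from 2 KO and 3 WT mice (edgeR adjusted p = 0.574), where 13.2% of genes separated this way and edgeR called 0.0288%. It was -0.28 without KO replicate 2. Cd274 in the same cells, a pair picked out after its values were seen, was 14.3 and 3.36 CPM in KO and 14.3, 33.6 and 15.1 in WT, with KO replicate 2 just under WT replicate 1 (log2 change -1.12, SE 0.56, edgeR adjusted p = 0.624). The summed T cell markers there ranged from 45.2 to 108 in KO and from 3.82 to 11.1 in WT, and Ptprc from 27.0 to 32.8 and from 7.98 to 10.8, and their part was not tested. Cd274 in exhausted CD8+ T cells (-0.58, edgeR adjusted p = 0.915) and Cd80 in proliferating CD4+ T cells and Tregs (-1.22, edgeR adjusted p = 1.00) rested on 4 KO and 2 WT mice, where 6.50% and 5.58% of genes separated. The second was -0.50 without WT replicate 3. Cd80 in proliferating CD8+ T cells had a log2 change of -1.18 (edgeR adjusted p = 1.00), which was 0.14 without WT replicate 3.

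**Figure D5:**
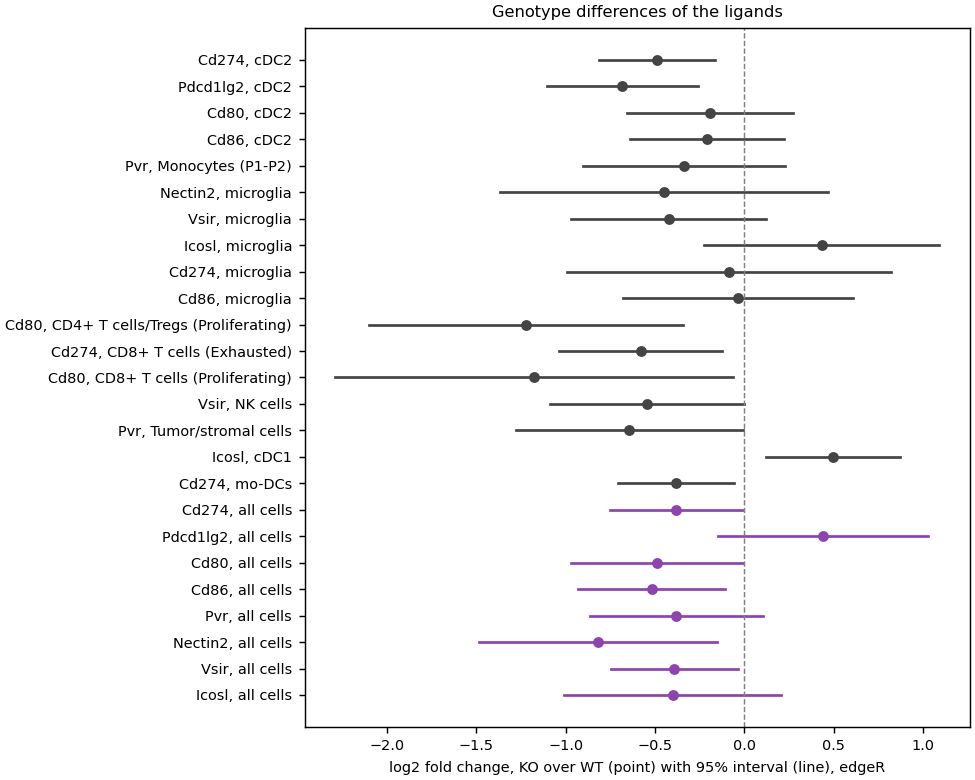
Log2 fold change of KO over WT with its 95% interval from edgeR, not adjusted for the number of genes, for 17 named pairs of gene and cell type (grey) and for the 8 genes summed over all cells (purple). Pdcd1lg2 is at -0.68 in cDC2 and at 0.44 over all cells.

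Summed over all cells of a library, Pdcd1lg2 took the opposite sign to its sign in the Ccr7- and Fscn1-rich cells. It was 34.6 ± 2.08 CPM in KO (33.4, 33.8, 33.5 and 37.7) and 25.6 ± 9.75 in WT (14.5, 29.5 and 32.8), and every KO mouse was above every WT mouse. Cd274 was 85.1 ± 11.6 and 112 ± 19.3, and Nectin2 3.98 ± 1.54 and 7.01 ± 0.82, with every KO mouse below. Each of the 3 had an exact two-sided permutation p of 0.0571 over the 35 divisions of the mice, 0.152 adjusted over the 8 ligands. The value 0.0571 is the smallest that this two-sided test can give with 4 and 3 mice, so it could not pass 0.05. In edgeR the log2 changes were 0.44 for Pdcd1lg2, -0.38 for Cd274, -0.82 for Nectin2, -0.49 for Cd80, -0.52 for Cd86, -0.38 for Pvr, -0.39 for Vsir and -0.40 for Icosl, with adjusted p from 0.185 to 0.415. Without WT replicate 1 the changes were 0.14 for Pdcd1lg2 (a difference of 3.44 CPM in place of 8.98), -0.11 for Pvr, -0.09 for Icosl and -0.33 for Cd86, and without WT replicate 3 that of Cd274 was -0.24. edgeR called 0% of the 16997 genes, with 3481 at an unadjusted p under 0.05 (20.5%, and 5 of the 8 ligands) and 1318 called by DESeq2. All KO mice were below all WT mice for 8.88% of genes and above for 10.9%. T cells held 66.1 ± 9.8% of Pdcd1lg2 UMIs in KO and 33.0 ± 17.8% in WT, and WT replicate 1 had 311 T cells among 2934 cells. With each of 11 names given equal weight, Pdcd1lg2 was 31.2 in KO and 38.8 in WT, a difference of -7.57 (exact two-sided permutation p adjusted over the 8 ligands 0.784). With these weights 2 of 4 KO mice were below every WT mouse for Cd274 and 1 of 4 for Nectin2, whose difference went from -3.03 to -1.23 CPM. The sum over all cells and the mean with equal weights thus gave Pdcd1lg2 opposite directions, and the permutation test could not have passed 0.05 for either.

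Lists of genes of related pathways and families were also read, chosen with earlier results of these data known. No link between a list and a ligand was tested. Interferon-response genes gave 337 pairs of gene and cell type, of which edgeR called 2, both lower in KO, beside 30 of 210300 pairs over all genes. They were Ifit1, an antiviral RNA-binding protein (log2 change -1.25, edgeR adjusted p = 0.0348), and Iigp1, an interferon-inducible GTPase (-1.77, edgeR adjusted p = 0.00593), both in naive or early-activated CD8+ T cells, where edgeR called 0.0241% of 8312 genes. In the Ccr7- and Fscn1-rich cells 14 of 15 such genes were lower in KO (median -1.07), with 6 at an unadjusted p under 0.05 and none called. Their sum ranged from 1161 to 2146 CPM in KO and from 1488 to 4575 in WT. In mo-DCs 15 of 15 were lower (median -1.23), 14 at an unadjusted p under 0.05 and none called, beside 798 of 10501 genes at that p and 34 called by DESeq2. The summed plasmacytoid dendritic markers, which share Bst2 with this list, ranged in mo-DCs from 491 to 620 CPM in KO and from 723 to 1224 in WT. The T cell markers ranged from 46.6 to 214 and from 15.7 to 55.7, and the part of either was not tested. In joined T cells 15 of 15 were lower (median -0.96), 10 at that p and none called, beside 855 of 13043 genes at that p and 35 called by DESeq2. In this fit and that of mo-DCs, edgeR called 0% of genes. Joined T cells mix names unevenly. Precursor-exhausted CD8+ T cells were 144 of 613, 1091 of 2663, 2040 of 3792 and 1175 of 3549 in KO replicates 1 to 4. In WT replicates 1 to 3 they were 21 of 311, 159 of 1504 and 446 of 1260. Within T cell names the median ran from -0.12 (exhausted CD8+) to -0.88 (naive or early-activated CD8+). The part of this mix was not tested. In microglia, the targeted cells, 6 of 14 were lower (median 0.05), none at that p, and in Microglia (Low-quality/activated) 5 of 11 (median 0.09), with 2 at that p. Monocyte-derived cells had 14 of 15 lower (median -0.59) but 1 at that p, and natural killer cells 12 of 14 (median -0.31) with 1. These differences between cell types were not tested. No gene was called among 162 pairs of the CD40 and NF-kB list, 268 pairs of the list of interferon-gamma signalling and PD-L1 stability, 165 pairs of the receptors or 40 pairs of the other B7, butyrophilin and nectin genes. In monocyte-derived cells 7 of 10 receptor genes had an unadjusted p under 0.05 (median log2 change 1.14, 2 lower), beside 674 of 11943 genes, of which edgeR called 0% and DESeq2 20. In Macrophages (P5) the count was 4 of 8 (median 1.09), beside 721 of 10632 genes. The summed T cell markers in monocyte-derived cells, with 7 of 7 above 0, ranged from 50.8 to 70.2 CPM in KO and from 14.2 to 36.9 in WT, and their part in this was not tested.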

How the data were processed

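Transcripts were counted as UMIs by 10x 5′ droplet sequencing in 7 libraries, 1 per mouse. The authors deposited 1 matrix of expected counts (UMIs per gene and cell, unscaled) and a cell table with library and cell type name. Of the non-zero values 7.51% were not whole, none of them in the 8 ligands; how they arose is not given in the sources used here. FastQC 0.11.5, STARsolo and STAR 2.7.10a with build mm10 are named per the submitters' processing notes.

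UMIs were summed per mouse and cell type and rounded to whole numbers; the tests had been laid out for counts, and rounding was adopted because some values were not whole. Names with 20 cells in a mouse and 2 mice per genotype were fitted in edgeR 4.0.16 (R 4.3.3; TMM, filterByExpr, robust quasi-likelihood), adjusted over all genes of a fit, and called under 0.05. The edgeR steps were run on simulated data with 200 changed genes, for cDC2, joined microglia and joined monocyte-derived cells alone. The outcome of that run is not given here. The SE is the size of the log2 change divided by the square root of F. Other settings were DESeq2 1.42.0, RLE scaling, no filter, rounding down, a minimum of 10 cells, sex, a replicate block, shallow cells or possible doublets left out, and each mouse left out. Cell types were not tested against each other, since the names came from the same cells. Levels of the whole library were compared by exact permutation (scipy 1.17.1). Likeness used genes of at least 10 CPM (UMIs per 1000000 UMIs) in a name, log2 with a pseudocount of 1, and the 3 genes nearest each ligand are named, except 1 that is not reported here. Named pairs were each ligand in the name or joined class where it was highest among those in which it was tested. That was joined microglia for Icosl, Vsir and Nectin2, the last not being tested in Microglia (Low-quality/activated). Every ligand tested in microglia, and pairs with an unadjusted p under 0.05, were also named. Genes of the lists are named for genotype where called, apart from Cd40 and the marker Ccr7, given in the Ccr7- and Fscn1-rich cells outside this rule. Nectin2 and Icosl in the Ccr7- and Fscn1-rich cells, the levels of receptors and relatives, and cell types set beside the top of an order were chosen after their values were seen. Symbols were matched to RefSeq tables. Members and lists were chosen with earlier results of these data known. The libraries held 207882564 UMIs in all, and p-values measure the spread between separate mice, at most 4 KO and 3 WT, and as few as 2 of a genotype in some cell types.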

Additional observations from a re-analysis of the deposited data

Results flagged for a closer look

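Pdcd1lg2, the gene of PD-L2, stood at 37.7 CPM over all cells of KO replicate 4, apart from the other 3 KO mice at 33.4, 33.8 and 33.5. The gap to the nearest of these was 0.889 of the whole range of the group, above Dixon's 95% critical value for 4 samples. This was 1 of 19 groups of 4 mice looked at, and chance alone marks about 1 in 20.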

How the results depend on the processing

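No ligand was called in any of the 25 cell type fits under any setting but 1. With no filter on low counts, 2 were called in cDC2, Pdcd1lg2 (-0.70, edgeR adjusted p = 0.0352) and Nectin2 (-1.17, edgeR adjusted p = 0.0431), and 113 genes of that fit were called in place of 0. Over all settings the adjusted p of Pdcd1lg2 there ranged from 0.0352 to 0.688 and that of Cd274 from 0.137 to 0.669. Of 259 alternative values of the 17 named log2 changes, 243 kept sign and side of the threshold and 15 changed sign; the cause was not tested. In microglia Cd274 turned to 0.079 with at least 10 cells per mouse, 0.020 without cells under 1500 UMIs, 0.29 in Microglia (Low-quality/activated) alone and 0.22 with the replicate block. Cd86 turned to 0.058 with sex as a term, 0.11 without shallow cells, 0.17 without possible doublets and 0.33 in that name alone. With each mouse left out in turn, Cd274 in microglia ranged from -0.37 to 0.46, Cd86 from -0.27 to 0.23 and Icosl from -0.045 to 0.70, Cd86 in cDC2 from -0.41 to 0.027 (without WT replicate 3) and Cd80 in proliferating CD8+ T cells from -1.55 to 0.14. Those that kept their sign but moved by over 1.5 times were Nectin2 (-1.08 to -0.17) and Vsir (-0.63 to -0.17) in microglia, Pvr in monocytes (-0.59 to -0.16) and Tumor/stromal cells (-1.01 to -0.28), and Cd80 in cDC2 (-0.40 to -0.04) and in proliferating CD4+ T cells and Tregs (-1.70 to -0.50). Over all cells, Pdcd1lg2 ranged from 0.14 to 0.64, Pvr from -0.55 to -0.11 and Icosl from -0.61 to -0.09. Equal weight per name turned the difference over all cells to -7.57 CPM for Pdcd1lg2 and 0.292 CPM for Icosl, and brought Cd86 from -41.0 to -10.8, Nectin2 from -3.03 to -1.23, Pvr from -5.16 to -1.89, Vsir from -29.1 to -6.37 and Cd80 from -13.0 to -6.43 CPM. A minimum of 10 cells moved Cd80 in Microglia (Low-quality/activated) to 23.9, Nectin2 in Tfh cells to 1.64 and Icosl in gamma-delta T cells to 7.35 CPM. The share of cDC2 cells with a Cd274 UMI was 46.3% at 1500 UMIs, 71.0% at 3000 and 85.8% unthinned, and with a Cd80 UMI 39.3%, 59.3% and 79.3%. For Vsir in microglia it was 49.5%, 70.2% and 70.4%. Genes called in cDC2 were 0 as reported, 13 by DESeq2 and 33 with the replicate block; over all cells they were 0, 1318 and 10.

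Replicate numbers were shared between groups, but nothing states that they pair mice, so pairing was not assumed. Deviations of mice with the same number correlated at 0.33, -0.43 and 0.11 over all cells. So few mice cannot decide whether the numbers pair them. With the number as a block, and KO replicate 4 without a partner, no ligand was called; Pdcd1lg2 in cDC2 was -0.85 (edgeR adjusted p = 0.0519) and Cd274 -0.55 (edgeR adjusted p = 0.211). By their own number 3 of 6 mice correlated best over all cells and 4 of 6 in cDC2. The count was 0 of 6 in monocyte-derived cells and 0 of 6 in T cells. Depth limits Nectin2 most, with 1110 UMIs in all.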
